A study of Sus scrofa with 23 samples.

Results

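The genes described here encode enzymes that modify drugs, steroids, retinoids, sterols and reactive aldehydes. They were taken by symbol: every gene whose symbol on the array begins with CYP and a digit, UGT, GST, SULT, ADH and a digit, ALDH or FMO. This gave 52 of the 6765 genes that the array names by a single symbol. They comprised 28 cytochrome P450 genes (CYP), 11 aldehyde dehydrogenases (ALDH), 6 glutathione transferases (GST), 3 sulfotransferases (SULT), 2 flavin-containing monooxygenases (FMO), 1 alcohol dehydrogenase (ADH5) and 1 glucuronosyltransferase (UGT2B31). Of 79 probe sets for these genes, the one with the highest mean of log2(signal + 16) over all samples stands for each gene. More than 1 probe set was present for 17 genes. By the mean of the linear signal, 1 gene, GSTA1, would be given by another probe set.

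As background, a cytochrome P450 or an FMO adds oxygen to a fat-soluble compound, and transferases then attach glutathione, sulfate or glucuronic acid so that the product can be excreted. Alcohol and aldehyde dehydrogenases oxidise alcohols and aldehydes, including those from lipid peroxidation, amino acids and vitamin A. Hepatocytes hold much of this activity, above all of P450 families 1 to 3, while several members (ADH5, ALDH2, ALDH9A1, GSTK1, GSTO1) are made in most tissues.

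The samples were 23 single-animal tissue samples from offspring of German Landrace gilts, profiled on a porcine Affymetrix array. All mothers had received a low-protein diet in gestation, so the arrays compare ages and not diets. The 4 stages were 94 days post conception (94 dpc, fetal, 5 samples) and 1, 28 and 188 days after birth (1, 28 and 188 dpn, 6 samples each). Each stage drew on the litters of 3 gilts. The labels do not name a sample's dam, so some animals of a stage are littermates and p-values over animals may be too small.

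The labelled tissue was liver, whereas the series title names muscle, and the arrays held markers of both. The 18 measured skeletal muscle markers had a median percentile of 99.2 to 99.8 in every sample. Summed over the list, their signal lay between 421021 and 496945 in fetal samples and between 1010430.0 and 1290150.0 in the oldest animals. Of the 18, 16 were called higher at 188 dpn than at 94 dpc, against 19.5% of all named genes. The 31 measured hepatocyte markers had a median percentile of 24.8 to 84.6, and their summed signal ran from 5836 to 51099 among the samples of 28 dpn alone. Albumin (ALB) signals were between 34.5 and 9137, at percentiles of 21.0 and 97.9. No value of any tested probe set was 0, so markers above 0 do not show that a cell type was present. In tissue homogenates fewer cells of a type and less RNA per cell cannot be told apart. Dividing the signal of the GAPDH 5' probe set by that of the 3' one gave 0.0868 to 0.148 in replicates 2, 4 and 5 of 1 dpn and 1.09 to 1.29 in the remaining 20 arrays. The same 3 arrays had the highest hepatocyte marker sums of 1 dpn (23122 to 27683, where the rest of the stage had 7568 to 12353). For the spike-in control Dap the same ratio ran from 0.0511 to 0.0978 on day 28 and from 0.264 to 0.359 on day 188, so that what this ratio reflects and age cannot be told apart between those stages.

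A signal is the deposited linear intensity of a probe set. A percentile is the place of a signal among the 23999 tested probe sets of its own array, a description within an array, since probe sets need not be equally sensitive. A fold is the difference of 2 stage means on log2(signal + 16) turned back to a ratio, which draws dim genes toward 1. A gene was called where limma's two-sided test gave a Benjamini-Hochberg adjusted p under 0.05 over all tested probe sets.

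The members covered the whole range of signal, and their median lay below that of all named genes. In the middle sample of each stage, the median percentile of the 52 members was 36.3 in the fetal stage, 46.5 on day 1, 44.1 on day 28 and 56.0 on day 188. Over all 6765 genes the same value was 71.8 to 72.5. The 28 P450 genes were lowest among the larger families, with 23.9, 33.6, 34.8 and 41.8 in the same order of stages. The 11 aldehyde dehydrogenases lay between 66.5 and 76.5 and the 6 glutathione transferases between 73.7 and 85.6. By stage medians, 3 members were at or above the 90th percentile at all 4 stages: the formaldehyde-clearing alcohol dehydrogenase ADH5, ALDH9A1 and the omega-class transferase GSTO1. These and 15 others stayed at or above the 50th percentile at all stages. Of the other members, 21 stayed below it, 15 of them P450 genes, and 13 crossed it.

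**Figure D1:**
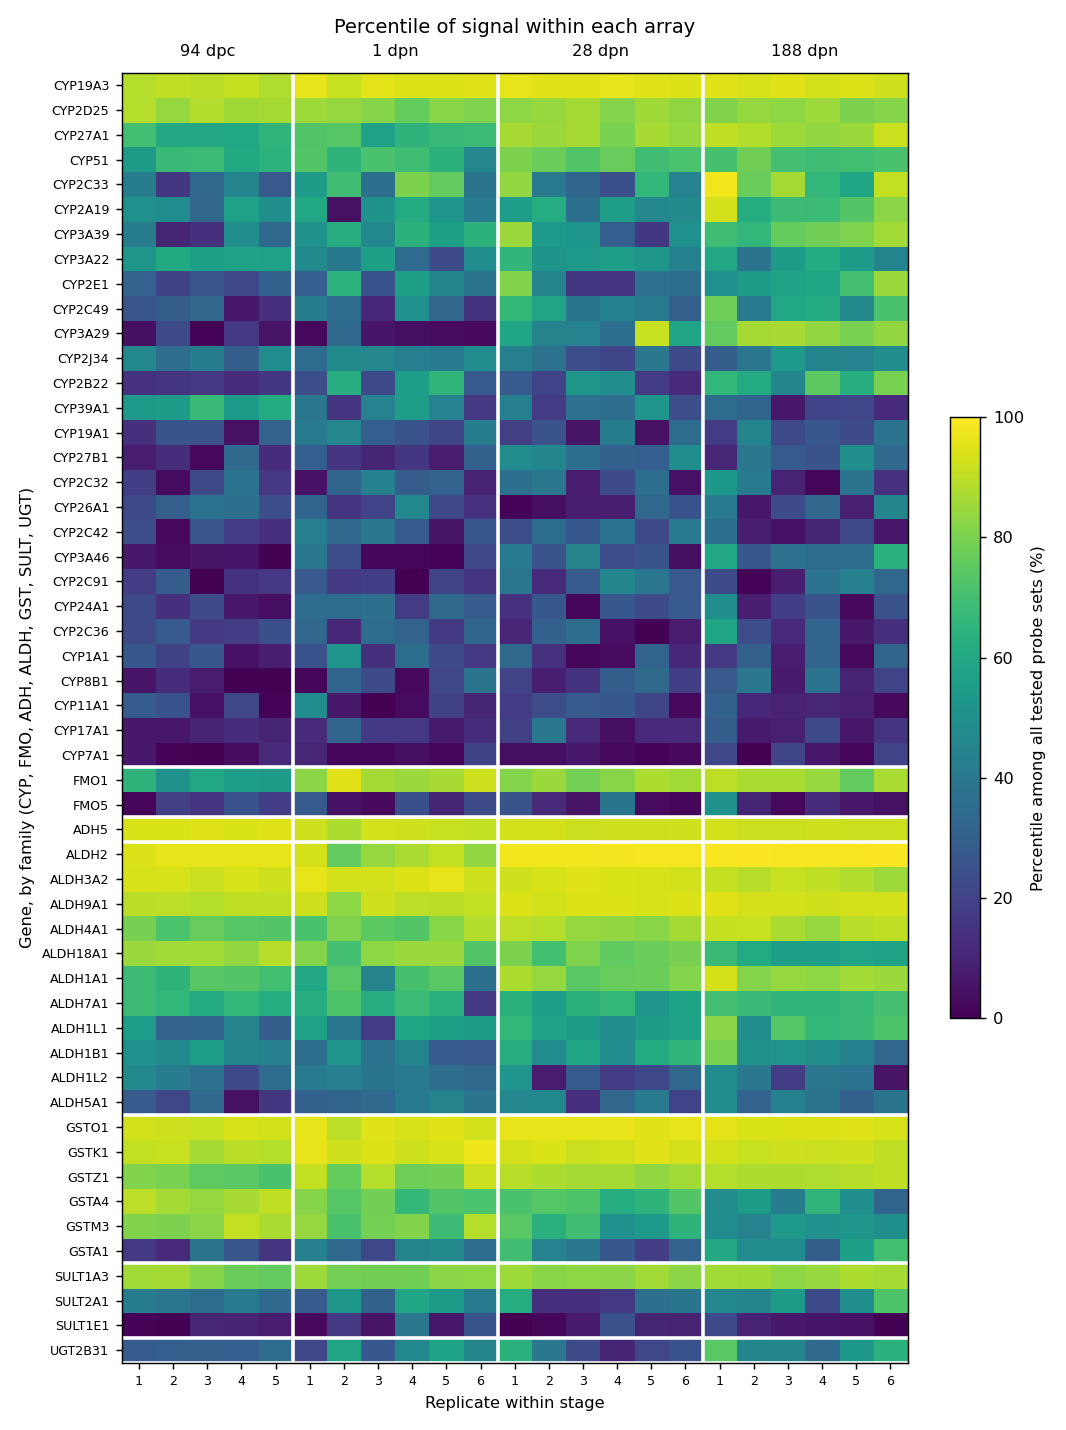
Percentile of signal within each array for the 52 members (rows, by family, brightest first) in the 23 samples (columns, by stage and replicate), on a colour scale from 0 to 100. ADH5, ALDH9A1 and GSTO1 are bright in every column, most P450 rows are dark at 94 dpc, and several of them brighten at 188 dpn.

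The members were compared between successive stages and between the first and the last. A change at birth stands for one from 94 dpc to 1 dpn, which also takes in the fetal days after 94 dpc. From 94 dpc to 1 dpn, 4 members were called higher and 7 lower, that is 7.69% and 13.5% of the 52, against 13.7% and 19.4% of all genes. From 1 to 28 dpn, 10 were higher and 1 lower (19.2% and 1.92%, against 13.5% and 10.6%). From 28 to 188 dpn, 6 were higher and 3 lower (11.5% and 5.77%, against 5.78% and 12.5%). Across the whole span, from 94 dpc to 188 dpn, 22 were higher and 7 lower (42.3% and 13.5%, against 19.5% and 27.4%). The median log2 change of the members in these comparisons was 0.16, 0.09, 0.20 and 0.45, and that of all genes -0.06, 0.03, -0.06 and -0.08. In all, 33 members were called in at least 1 comparison and 19 in none. That count was not made over all genes, so it cannot be set against a general rate. Markers of other cell types moved in the same steps. From 94 dpc to 1 dpn 4 of 8 adipocyte markers were called higher (all genes 13.7%), with summed signals of 8917 to 12090.9 and then 29347 to 41112. Of these markers, ADIPOQ had means of 91.1 ± 29.6 (n = 5) and then 105 ± 56.8 (n = 6). FABP4 had 4690 ± 772 and then 7716 ± 3683, so the sum rose mainly by other genes of the list. From 1 to 28 dpn 4 of 6 macrophage markers were higher (summed signals 1055 to 4183, then 4397 to 12783), against 13.5% of all genes. So were 5 of 7 endothelial markers (3419 to 5485, then 6424 to 9165). Their part in the members' changes was not tested. The comparisons share samples, so their calls are not independent of each other.

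The split of the calls at birth depended on the scaling of the arrays. As deposited, 4 members were higher and 7 lower at 1 dpn than at 94 dpc, with quantile normalization 7 and 6, and with every array centred on its own median 11 and 4. Over all probe sets, the corresponding median log2 changes were -0.11, 0.04 and 0.17. For 188 dpn against 94 dpc the splits were 22 and 7, 21 and 7, and 24 and 4, with medians of -0.08, 0.08 and 0.22. All values are on the deposited scaling, and small changes are relative to these shifts.

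**Figure D2:**
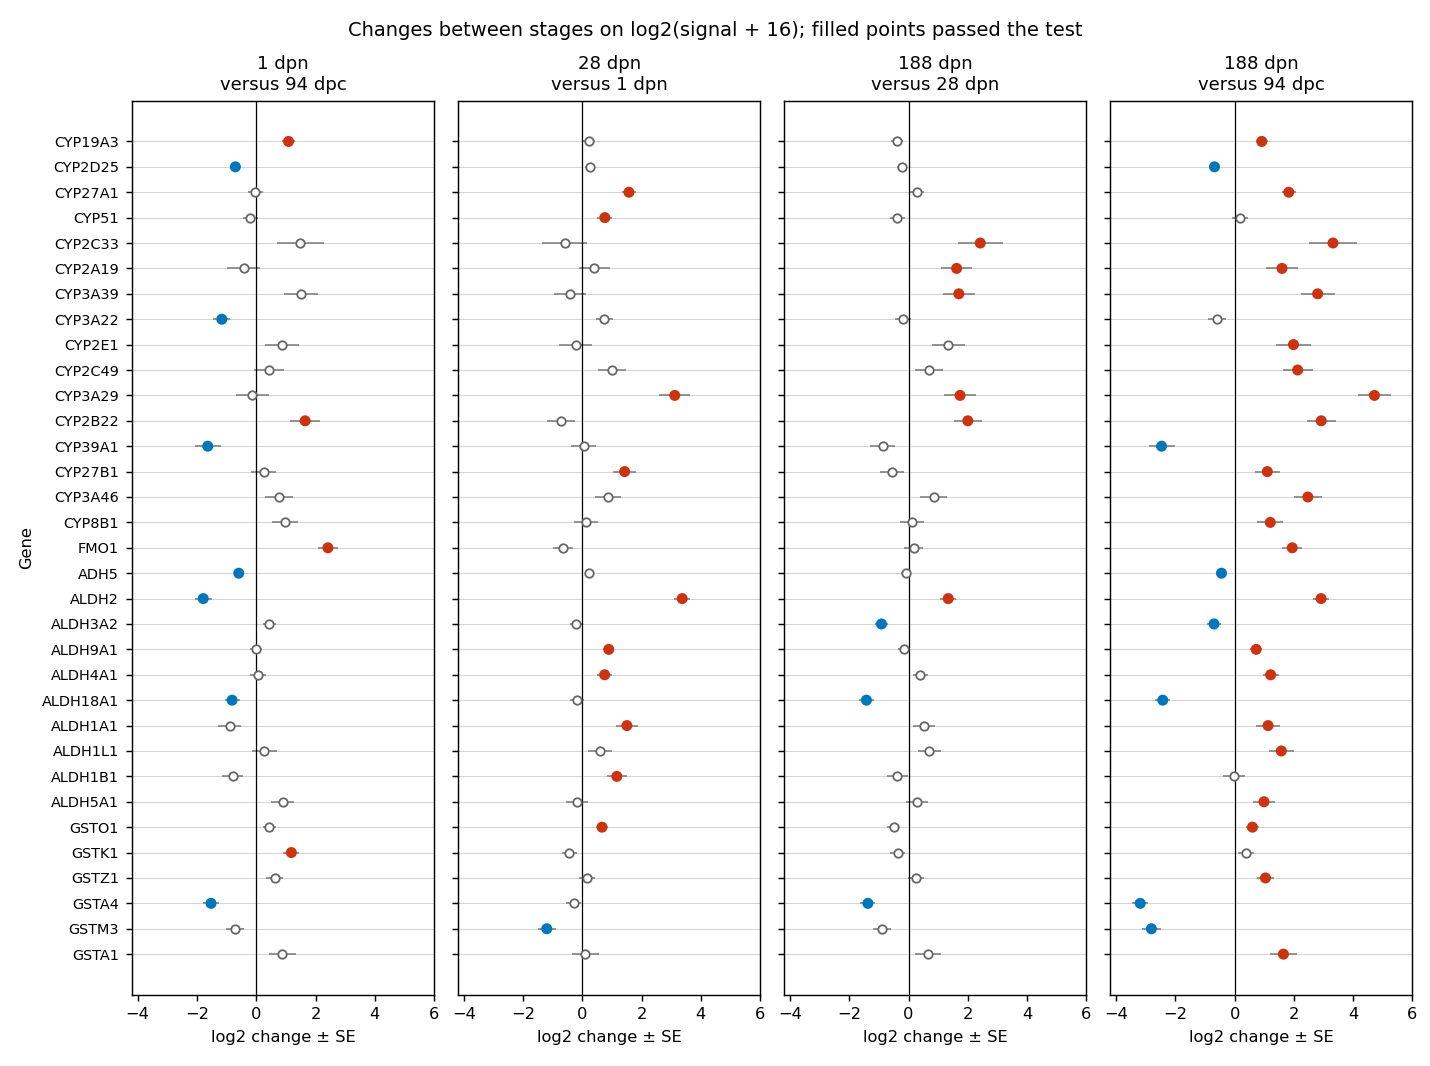
Log2 change with its standard error (horizontal axis, on log2 of signal plus 16) for the 33 members called in at least 1 comparison (vertical axis), with 1 panel per comparison. Filled points passed the test, red as higher and blue as lower in the first-named stage, and open points did not. ALDH2 is filled in all 4 panels, and the last panel holds the most filled points, 22 higher and 7 lower.

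Among the alcohol and aldehyde dehydrogenases, the mitochondrial aldehyde dehydrogenase ALDH2, which oxidises acetaldehyde and lipid aldehydes, changed at every step. At 94 dpc the 5 samples had signals of 2873, 3916, 3632, 3908 and 3953. At 1 dpn the lowest, median and highest signals were 489, 956 and 2335, at 28 dpn 8455, 10332 and 15130.0, and at 188 dpn 24279, 24754 and 35114. No 2 stages overlapped, with 1 dpn lowest and 188 dpn highest. The means were 3656 ± 456 (SD, n = 5), 1183 ± 679.7 (n = 6), 11110.5 ± 2615 (n = 6) and 27886 ± 5138 (n = 6). ALDH2 was 3.46-fold lower at 1 dpn than at 94 dpc (limma adjusted p = 5.3e-05), 10.3-fold higher at 28 than at 1 dpn (adjusted p = 2.9e-08) and 2.53-fold higher at 188 than at 28 dpn (adjusted p = 0.0014). At 188 dpn it stood 7.55-fold above 94 dpc (adjusted p = 2e-08), and its median percentile moved from 85.6 at 1 dpn to 99.1 at 188 dpn.

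ALDH18A1, the mitochondrial enzyme that starts proline synthesis from glutamate, ran the other way. Its 94 dpc signals were 987, 1068, 1098, 914 and 1404. The lowest, median and highest were 346, 682 and 927 at 1 dpn, 349, 564 and 666 at 28 dpn, and 154, 176 and 288 at 188 dpn. All 188 dpn samples lay below all samples of each other stage. ALDH18A1 was 1.76-fold lower at 1 dpn than at 94 dpc (adjusted p = 0.018), did not pass between 1 and 28 dpn (log2 change -0.19, adjusted p = 0.66), and was 2.68-fold lower at 188 than at 28 dpn (adjusted p = 0.00027). From 94 dpc to 188 dpn it was 5.38-fold lower (adjusted p = 5.5e-08). The call at birth was lost after quantile normalization (adjusted p = 0.059) and after centring (adjusted p = 0.12), and also without 94 dpc replicate 5 or without the highest-marker sample of each stage.

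ALDH1A1, a cytosolic enzyme that makes retinoic acid from retinal, had its lowest signals on the first day. The fetal signals were 377, 334, 545, 484 and 405, and at 1 dpn the lowest, median and highest were 73.7, 279 and 442. At 28 dpn these were 449, 607 and 1131, and at 188 dpn 653, 819 and 2323. The 28 dpn samples all lay above the 1 dpn samples, and the 188 dpn samples all above the fetal ones. ALDH1A1 rose 2.83-fold from 1 to 28 dpn (adjusted p = 0.0073) and was 2.18-fold higher at 188 dpn than at 94 dpc (adjusted p = 0.027). Replicate 1 held the 188 dpn maximum of 2323, the others of that stage lying between 653 and 939, and the second call was lost without it (adjusted p = 0.077) or without 94 dpc replicate 1, 2 or 5. The first call was lost with the mean of both ALDH1A1 probe sets (log2 change 0.89, adjusted p = 0.062), the dimmer of which passed in none of the comparisons. Among the 1 dpn samples the 3 arrays with a low GAPDH ratio had the highest ALDH1A1 signals, 353 to 442, and without them that log2 change was 2.35.

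ALDH9A1, which oxidises trimethylaminobutyraldehyde in carnitine synthesis, and ALDH4A1, which degrades proline, were also higher after the first day of life. ALDH9A1 had signals of 1486, 1487, 1380.2, 1586 and 1585 at 94 dpc. Its lowest, median and highest values were 807, 1563 and 2051 at 1 dpn, 2232, 2923 and 3069.6 at 28 dpn, and 2083, 2426 and 3576 at 188 dpn. Both later stages lay above both earlier ones in every sample. The 28 dpn level was 1.85-fold that of 1 dpn (adjusted p = 0.002) and the 188 dpn level 1.66-fold that of 94 dpc (adjusted p = 0.0055). ALDH4A1 means were 553 ± 96.8 (n = 5) in the fetal stage and 628 ± 312, 1003 ± 267 and 1333 ± 363 (n = 6 each) on days 1, 28 and 188. It was 2.32-fold higher at 188 dpn than at 94 dpc (adjusted p = 0.001), without overlap, and its second probe set passed in the same direction (adjusted p = 0.0057). Its 1.68-fold rise from 1 to 28 dpn lay just inside the threshold (adjusted p = 0.0495), overlapped, and was lost when any of 19 samples was left out in turn.

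ALDH3A2, the fatty aldehyde dehydrogenase, was lower in the oldest animals. It had fetal signals of 2388, 2363, 1826, 2364 and 2062, and at 188 dpn the lowest, median and highest were 861, 1405 and 1790.0. At 1 dpn these were 1997, 2779 and 4634 and at 28 dpn 2079, 2567 and 3182, so that the 188 dpn samples lay below all others. ALDH3A2 was 1.88-fold lower at 188 than at 28 dpn (adjusted p = 0.0054) and 1.62-fold lower than at 94 dpc (adjusted p = 0.018). Its second probe set was lower in both comparisons as well (log2 changes -0.91 and -1.06, adjusted p = 0.0011 and 6.9e-05). That probe set was in addition higher at 1 dpn than at 94 dpc (0.56, adjusted p = 0.028) and lower at 28 than at 1 dpn (-0.71, adjusted p = 0.0068), where the brighter one did not pass. The difference from 94 dpc was lost after centring (adjusted p = 0.16) and without 188 dpn replicate 6.

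ADH5 was bright and changed by small folds. Its samples at 94 dpc had 2579, 2492, 2692, 2572 and 3001, and the lowest, median and highest were 1176, 1822 and 2279.9 at 1 dpn, 1886, 2032 and 2407 at 28 dpn, and 1787, 1893 and 2271 at 188 dpn. All fetal samples exceeded all later ones. ADH5 was 1.51-fold lower at 1 dpn (adjusted p = 0.0075) and 1.36-fold lower at 188 dpn (adjusted p = 0.031) than at 94 dpc, and both calls were lost after centring (adjusted p = 0.16 and 0.49). The second was also lost without any of 6 samples in turn.

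The remaining aldehyde dehydrogenases were dimmer. ALDH1L1, a folate enzyme that oxidises formyltetrahydrofolate, was 2.98-fold higher at 188 dpn than at 94 dpc (349 ± 204, n = 6, against 102 ± 59.8, n = 5, adjusted p = 0.0044), with overlap. Mitochondrial ALDH1B1 was 2.24-fold higher at 28 than at 1 dpn (201 ± 57.3 against 82.2 ± 33.1, n = 6 each, adjusted p = 0.023), also with overlap, and lost without 1 dpn replicate 6 or 28 dpn replicate 6. ALDH5A1, which breaks down succinic semialdehyde, was 1.99-fold higher at 188 dpn than at 94 dpc (83.4 ± 24.0 against 39.5 ± 28.6, adjusted p = 0.041), a call lost without any of 7 samples in turn. ALDH7A1, of lysine breakdown, and ALDH1L2, the mitochondrial folate enzyme, passed in no comparison by these probe sets, with stage means of 224 to 327 and 57.2 to 90.3. A second, dimmer ALDH7A1 probe set was lower at 1 dpn than at 94 dpc (62.2 ± 42.6, n = 6, against a mean of 137, log2 change -1.16, adjusted p = 0.014).

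**Figure D3:**
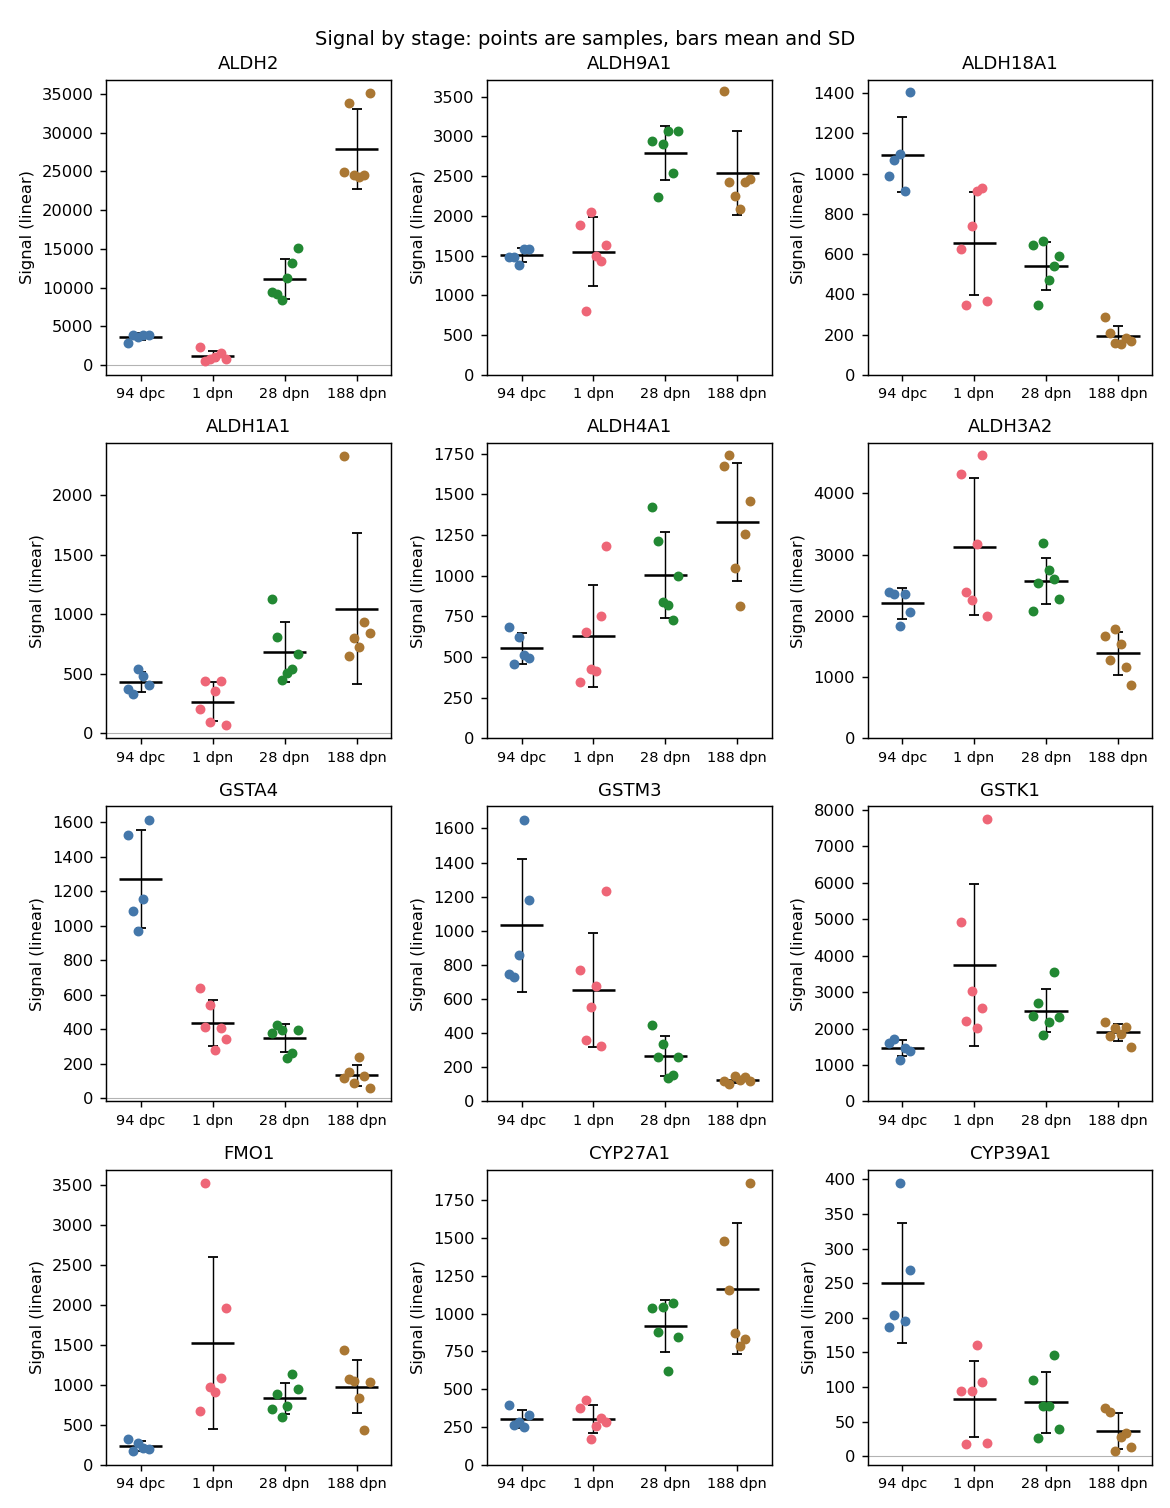
Linear signal (vertical axis) of 12 members at the 4 stages (horizontal axis). Points are samples, horizontal bars the mean and error bars the SD (n = 5 at 94 dpc, n = 6 at each other stage). ALDH2 climbs from 1183 ± 679.7 at 1 dpn to 27886 ± 5138 at 188 dpn, while GSTA4, GSTM3 and ALDH18A1 are highest at 94 dpc.

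The glutathione transferases split between falling and rising members. GSTA4, the alpha-class enzyme for 4-hydroxynonenal from oxidised lipids, had signals of 1523, 1086, 967, 1155 and 1613 at 94 dpc. The lowest, median and highest were 280.2, 409.7 and 637 at 1 dpn, 236, 388 and 425 at 28 dpn, and 60.0, 125 and 243 at 188 dpn. Every fetal sample lay above every later sample. GSTA4 was 2.88-fold lower at 1 dpn than at 94 dpc (adjusted p = 0.00016), and 2.59-fold lower at 188 than at 28 dpn (adjusted p = 0.00066), where 1 sample of each stage overlapped. From 94 dpc to 188 dpn it was 9.11-fold lower (adjusted p = 2e-09). Its second probe set was dim, with stage means of 22.9 to 52.6, and passed in none of the comparisons. With the mean of both, the calls at birth and from 28 to 188 dpn were lost (adjusted p = 0.46 and 0.086), and the log2 change over the whole span was -1.41 in place of -3.19.

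GSTM3, a mu-class transferase, also fell across the whole span. Its 94 dpc signals were 747, 727, 858, 1652 and 1180. The lowest, median and highest were 325, 615 and 1234 at 1 dpn, 139.9, 261 and 449 at 28 dpn, and 103, 123 and 147 at 188 dpn. Samples of 94 dpc lay above all of 28 and 188 dpn, while the stages overlapped from one step to the next. It was the only member called lower at 28 than at 1 dpn, by 2.30-fold (adjusted p = 0.0071), and was 7.01-fold lower at 188 dpn than at 94 dpc (adjusted p = 1.7e-07). Beside these falls, the 6 measured fibroblast markers had a summed signal of 42857 to 61794 at 94 dpc and 9624 to 15657 at 188 dpn, with 5 of 6 called lower. The 7 endothelial markers had 9131 to 15129.6 and 2738 to 4141, with 5 of 7 lower, against 27.4% of all genes. The part of these cells in the falls of GSTA4, GSTM3 and ALDH18A1 was not tested.

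GSTK1, the mitochondrial and peroxisomal kappa-class transferase, was highest on the first day. Signals were 1612, 1719, 1126, 1479.6 and 1391 at 94 dpc, and the lowest, median and highest were 2028, 2794 and 7765 at 1 dpn. At 28 dpn these were 1832, 2343 and 3549 and at 188 dpn 1499, 1932 and 2177. All 1 dpn samples lay above the fetal ones, by 2.27-fold (adjusted p = 0.002), and no other comparison of GSTK1 passed. GSTZ1, of tyrosine breakdown, was 2.06-fold higher at 188 dpn than at 94 dpc (1232 ± 147, n = 6, against 599 ± 132, n = 5, adjusted p = 0.0051), without overlap. Its second probe set, with a median percentile of 63.4, did not pass there (log2 change 0.33, adjusted p = 0.33) and overlapped. GSTO1 was 1.52-fold higher over the same span (3181 ± 496 against 2089 ± 281, adjusted p = 0.04), without overlap. The rise of GSTO1 from 1 to 28 dpn was 1.58-fold (adjusted p = 0.035). Each GSTO1 call was lost without any of 8 samples in turn. GSTA1, an alpha-class enzyme abundant in hepatocytes, was 3.13-fold higher at 188 dpn than at 94 dpc (160.3 ± 86.1 against 41.3 ± 34.1, adjusted p = 0.0064), with overlap.

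Of the flavin-containing monooxygenases, which oxidise nitrogen and sulfur in drugs, FMO1 was higher at every stage after birth. Its fetal signals were 317, 169, 277, 210.3 and 193. The lowest, median and highest were 673, 1031 and 3517 at 1 dpn, 596, 807 and 1135 at 28 dpn, and 434, 1040.1 and 1438 at 188 dpn. Every later sample lay above every fetal one. FMO1 was 5.34-fold higher at 1 dpn (adjusted p = 1.4e-05) and 3.85-fold higher at 188 dpn (adjusted p = 6.8e-05) than at 94 dpc. FMO5 was dim, with stage means of 24.5 to 29.7, and passed in no comparison.

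The P450 genes of families 1 to 3, the main drug-metabolising enzymes, made up 16 of the 28 P450 members. Between 94 dpc and 188 dpn, 8 were called higher, 1 lower and 7 did not pass, with a median log2 change of 1.04. Of all genes, 19.5% were higher and 27.4% lower in that comparison. From 28 to 188 dpn, 5 were higher and 11 did not pass (all genes 5.78% higher and 12.5% lower). From 1 to 28 dpn CYP3A29 alone passed, as higher (all genes 13.5% and 10.6%). From 94 dpc to 1 dpn, CYP2B22 was higher, CYP3A22 and CYP2D25 lower, and 13 did not pass (all genes 13.7% and 19.4%).

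CYP3A29, a pig counterpart of the human drug-metabolising CYP3A4, was higher at 28 and 188 dpn than before. Signals at 94 dpc were 5.03, 39.9, 2.04, 25.1 and 5.00, and at 1 dpn 4.41, 66.1, 5.35, 4.12, 4.42 and 3.93. At 28 dpn they were 218, 121, 99.5, 75.8, 1769 and 189, and at 188 dpn 465, 971, 1021, 776, 557 and 756. Every sample of 28 and 188 dpn lay above every sample of the earlier stages. CYP3A29 was 8.67-fold higher at 28 than at 1 dpn (adjusted p = 0.00023) and 26.3-fold higher at 188 dpn than at 94 dpc (adjusted p = 3.3e-07). Because the early signals were near the floor of the array, the size depends on the added constant: the log2 change of 4.72 over the whole span was 6.14 with a constant of 1 and 3.35 with 64. Without 28 dpn replicate 5 the log2 change from 1 to 28 dpn was 2.52 in place of 3.12. The step from 28 to 188 dpn was 3.34-fold (adjusted p = 0.028), and that call was lost when 28 dpn replicate 2, 3, 4 or 6 or 188 dpn replicate 2 or 3 was left out (adjusted p from 0.051 to 0.078).

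CYP3A39 and CYP3A46 are close relatives of CYP3A29, and CYP3A22, CYP3A46 and CYP3A29 are consecutive protein-coding genes in RefSeq's pig annotation (Sscrofa11.1). Their sequences are alike, so that probe sets may share targets and the values of the 4 genes are uncertain as single genes. CYP3A39 had signals of 109, 11.6, 18.5, 148 and 67.7 at 94 dpc, and the lowest, median and highest were 103, 203 and 247 at 1 dpn. At 28 dpn these were 23.1, 137 and 870.2 and at 188 dpn 262, 477 and 934. The 188 dpn samples exceeded all fetal samples, by 6.97-fold (adjusted p = 0.00038), and the second CYP3A39 probe set rose as well (log2 change 2.48, adjusted p = 0.0066). From 28 to 188 dpn CYP3A39 was 3.24-fold higher (adjusted p = 0.039), with overlap, a call lost without any of 8 samples in turn. CYP3A46 was 5.54-fold higher at 188 dpn (114 ± 74.3, n = 6, against 4.74 ± 2.11, n = 5, adjusted p = 0.00019), without overlap. CYP3A22 took another course: its signals of 178, 269, 235, 227 and 217 at 94 dpc were followed by a lowest, median and highest of 36.3, 102 and 163 at 1 dpn. The 1 dpn samples lay below the fetal ones, by 2.24-fold (adjusted p = 0.0042). Leaving out those 3 arrays with a low GAPDH ratio ended this call (adjusted p = 0.1), and CYP3A22 passed in no other comparison.

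CYP2B22, a pig P450 of the phenobarbital-responsive 2B group, rose in more than 1 step. Signals at 94 dpc were 17.8, 20.7, 27.9, 15.7 and 21.8, and at 1 dpn 44.4, 223, 31.6, 160, 274 and 48.7. At 28 dpn they were 59.0, 33.5, 148, 130, 25.8 and 13.2, and at 188 dpn 271, 207, 106, 404, 220 and 564. The 1 dpn and the 188 dpn samples all exceeded the fetal ones, and those of 28 dpn did not. CYP2B22 was 3.14-fold higher at 1 dpn than at 94 dpc (adjusted p = 0.016), 4.00-fold higher at 188 than at 28 dpn (adjusted p = 0.0055) and 7.58-fold higher at 188 dpn than at 94 dpc (adjusted p = 4.8e-05). The 3 highest values of 1 dpn belonged to the 3 arrays with a low GAPDH ratio, and without them the first log2 change went from 1.65 to 0.64 (adjusted p = 0.39).

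CYP2C33 and CYP2C49 belong to the 2C group, whose pig members are also alike in sequence. CYP2C33 had signals of 108, 23.8, 76.0, 121 and 50.4 at 94 dpc, 172, 328, 68.0, 647, 481 and 77.7 at 1 dpn, and 799, 107, 58.0, 41.4, 279 and 99.6 at 28 dpn. At 188 dpn they were 8196, 485, 963, 251, 189 and 1543, all above the fetal samples. The fold from 94 dpc to 188 dpn was 9.98 (adjusted p = 0.0018), and without 188 dpn replicate 1 the log2 change was 2.66 in place of 3.32. The step from 28 to 188 dpn passed (5.36-fold, adjusted p = 0.034) but was lost without that replicate, without 188 dpn replicate 3 or 6 or without 28 dpn replicate 2, 3, 4 or 6 (adjusted p from 0.061 to 0.089). CYP2C49 had signals of 49.7, 58.9, 75.4, 6.51 and 15.5 at 94 dpc and a lowest, median and highest of 88.8, 192 and 516 at 188 dpn, 4.37-fold higher (adjusted p = 0.0016) without overlap.

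CYP2E1, the P450 of ethanol, and CYP2A19, a coumarin-oxidising P450, were higher in the oldest animals with large spread. CYP2E1 signals were 63.96, 32.5, 52.4, 36.9 and 59.6 at 94 dpc and 132, 157, 171, 179, 316 and 826 at 188 dpn, without overlap (3.96-fold, adjusted p = 0.0091). At 28 dpn replicate 1 had 665 and the others 20.1 to 123. CYP2A19 was 3.03-fold higher at 188 dpn than at 94 dpc (adjusted p = 0.025) and 3.08-fold higher than at 28 dpn (adjusted p = 0.041). Its signal in 188 dpn replicate 1 was 2192, against 214 to 694 in the others, and without it neither call held (adjusted p = 0.071 and 0.11). The CYP2A19 call against 28 dpn was lost without any of 8 samples in turn. That against 94 dpc was also lost without 94 dpc replicate 3 or 188 dpn replicate 6.

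CYP2D25, a microsomal vitamin D 25-hydroxylase of the pig, was called lower after birth by its brighter probe set. Signals at 94 dpc were 1353, 936, 1312, 1056 and 1122, and the lowest, median and highest were 496, 714 and 873 at 1 dpn and 579, 690.1 and 895 at 188 dpn. Neither later stage overlapped the fetal one. The difference was 1.63-fold at 1 dpn (adjusted p = 0.0044) and 1.60-fold at 188 dpn (adjusted p = 0.0036). The dimmer probe set went the other way, with a log2 change of 2.09 at 188 dpn (adjusted p = 0.0094), so the direction for the gene is not settled. The falls of the brighter one were also lost after centring (adjusted p = 0.085 and 0.098).

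Hepatocyte marker sums and member signals were set side by side, sample by sample. At 94 dpc, replicate 3 had the highest marker sum, 47203 against 15056 to 30872, and the highest signal of its stage for 13 of the 52 members, among them CYP2B22, CYP2C49 and GSTA1. Replicate 1 of that stage also held the highest signal for 13. Replicate 3 did not have the highest fetal signal of CYP2C33, CYP2E1, CYP3A39, SULT2A1 or UGT2B31. At 28 dpn, replicate 1 had a hepatocyte marker sum of 51099 against 5836 to 8945 in the other 5 samples and an ALB signal of 6400 against 34.5 to 174. This sample held the highest signal of its stage for 20 of the 52 members, among them CYP2E1, CYP2C33, CYP2C49, CYP3A39, CYP3A46, GSTA1, SULT2A1 and UGT2B31. At 1 dpn, replicates 2, 4 and 5, with the highest marker sums, held the 3 highest values of CYP2B22, CYP2C33, CYP2E1, SULT2A1 and UGT2B31, whereas CYP2A19 had its lowest value, 5.20, in replicate 2, which had the highest sum of that stage. By count, 1 dpn replicate 2 held the highest signal of its stage for 11 of the 52 members. Replicate 1 of 1 dpn, with a marker sum of 12353, held it for 15. The highest 28 dpn value of CYP3A29, 1769, was in replicate 5, whose marker sum was 8945 and ALB signal 34.5.

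At 188 dpn the highest marker sum, 39469, was in replicate 6. This sample held the highest value for 11 of the 52 members, among them CYP2B22, CYP2E1, CYP3A39, CYP3A46, GSTA1 and SULT2A1. Replicate 1 of that stage held the highest value for 26 of the 52 members, including CYP2C33, CYP2A19, CYP2C49, ALDH1A1, ALDH1L1, FMO1 and UGT2B31, with a marker sum of 14215 between the extremes of the others (5359.6 to 39469). The same count over all genes was not made for any stage, so these counts cannot be read as particular to the members. Of the 31 hepatocyte markers, 6 were called higher and 4 lower at 188 dpn than at 94 dpc, against 19.5% and 27.4% of all genes. The markers did not move together from 94 dpc to 188 dpn. Mean ALB signals were 385 ± 435 (n = 5) and then 3640 ± 2878 (n = 6). APOA1 had means of 8761 and then 1378, and SERPINA1 of 3695 and then 422. The marker sum mixes these courses, and an adjustment for ALB alone was not tested. With the log2 marker sum as a covariate, a setting chosen after seeing the data, 20 members were higher and 7 lower over that span, and 3 higher and 3 lower from 28 to 188 dpn in place of 6 and 3. Without the sample of the highest marker sum at each stage, also chosen after seeing the data, 19 were higher and 7 lower over the span.

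**Figure D4:**
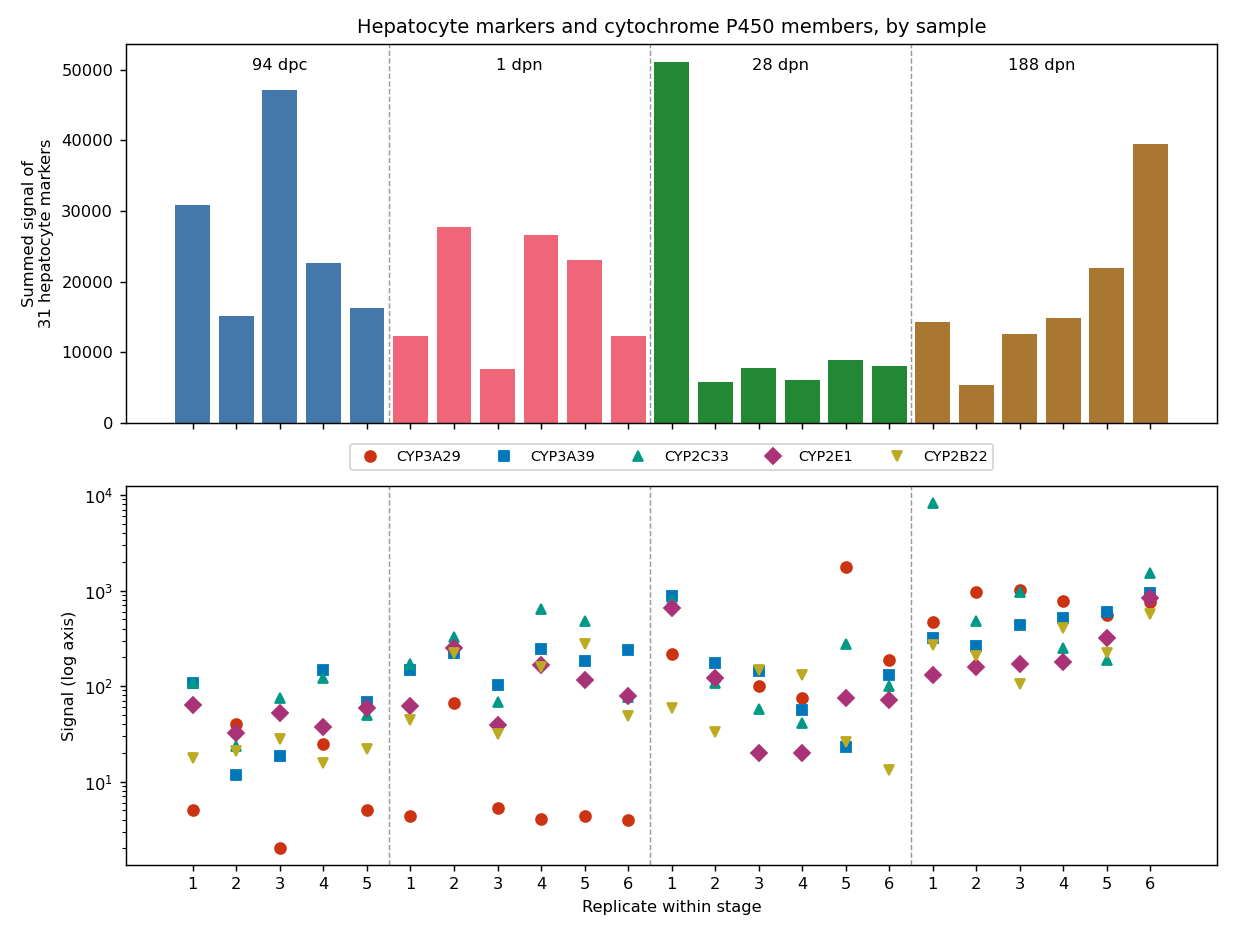
Summed signal of the 31 hepatocyte markers (upper panel, bars) and signals of 5 P450 members (lower panel, points, log axis) in each of the 23 samples, ordered by stage and replicate. The bar of 28 dpn replicate 1, 51099, stands above its neighbours together with CYP2E1, CYP3A39 and CYP2C33, while the highest CYP3A29 value of that stage is in replicate 5.

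Of the 5 P450 genes of sterol and bile acid metabolism, CYP27A1, the mitochondrial sterol 27-hydroxylase, was higher from 28 dpn on. Signals at 94 dpc were 397, 266, 282, 250.2 and 327. The lowest, median and highest were 168, 298 and 432 at 1 dpn, 622, 959 and 1072 at 28 dpn, and 786, 1014 and 1867 at 188 dpn. The 2 later stages lay above the 2 earlier ones in every sample. CYP27A1 was 2.97-fold higher at 28 than at 1 dpn (adjusted p = 5.8e-05) and 3.55-fold higher at 188 dpn than at 94 dpc (adjusted p = 2.2e-06). One of its 2 other, dim probe sets was higher over the whole span too (log2 change 1.81, adjusted p = 0.0029). With the mean of all 3, the rise from 1 to 28 dpn was lost (adjusted p = 0.081).

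CYP39A1, the 24-hydroxycholesterol hydroxylase, fell. Its 94 dpc signals were 187, 204, 395, 196 and 270, and the lowest, median and highest were 17.1, 94.4 and 161 at 1 dpn, 26.9, 72.9 and 146 at 28 dpn and 6.96, 30.9 and 70.1 at 188 dpn. Every later sample lay below every fetal one. CYP39A1 was 3.11-fold lower at 1 dpn (adjusted p = 0.0073) and 5.53-fold lower at 188 dpn (adjusted p = 8.4e-05) than at 94 dpc. The first call was lost when the sample of the highest hepatocyte marker sum was left out at each stage (adjusted p = 0.065), among them 94 dpc replicate 3 with the top value of 395. CYP51, the lanosterol demethylase of cholesterol synthesis, was 1.69-fold higher at 28 than at 1 dpn (463 ± 114 against 278 ± 96.5, n = 6 each, adjusted p = 0.039), a call lost without any of 7 samples in turn. CYP8B1, the sterol 12-alpha-hydroxylase, was 2.30-fold higher at 188 dpn than at 94 dpc (42.9 ± 32.3 against 6.70 ± 5.67, adjusted p = 0.032), with overlap and lost without any of 6 samples in turn. CYP7A1, the rate-limiting enzyme of bile acid synthesis, had signals of at most 32.8, a median percentile of 3.62, and passed in no comparison.

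Among the 4 P450 genes of steroid hormone synthesis, an aromatase gene, CYP19A3, was bright by 1 of its 8 probe sets. That probe set had signals of 1325, 1574, 1439, 1706 and 1273 at 94 dpc, and a lowest, median and highest of 1791, 3183 and 4367 at 1 dpn, 3119.9, 3442 and 4423 at 28 dpn and 2089, 2756 and 3631 at 188 dpn. All later samples exceeded the fetal ones. It was 2.12-fold higher at 1 dpn (adjusted p = 0.00034) and 1.88-fold higher at 188 dpn (adjusted p = 0.00098) than at 94 dpc. The other 7 probe sets were dim, with stage means of 3.18 to 92.1. With the mean of all 8 the log2 change at 1 dpn was -0.042 (adjusted p = 0.89) and at 188 dpn 0.10 (adjusted p = 0.69), so the result rests on that probe set. CYP19A1 (the gonadal aromatase), CYP17A1 and CYP11A1, which catalyse some of the steps from cholesterol to estrogens, passed in no comparison and had stage means of 10.2 to 70.0.

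Of the P450 genes of vitamins D and A, CYP27B1, which makes active vitamin D, was called higher at 28 than at 1 dpn (94.8 ± 37.6 against 28.0 ± 24.2, n = 6 each, 2.69-fold, adjusted p = 0.015). It was also higher at 188 dpn than at 94 dpc (63.8 ± 39.6 against 22.8 ± 28.3, 2.15-fold, adjusted p = 0.042), with overlap in both. The first call ended when the 3 arrays with a low GAPDH ratio were left out (adjusted p = 0.21) and the second without any of 8 samples in turn. CYP24A1, which inactivates vitamin D, and CYP26A1, which clears retinoic acid, passed in no comparison.

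The conjugating sulfo- and glucuronosyltransferases gave no call. SULT1A3, a phenol sulfotransferase, was bright and even, with means of 834 ± 241 (n = 5), 672 ± 126, 813 ± 119 and 914 ± 127 (n = 6 each) from 94 dpc to 188 dpn. UGT2B31 had means of 63.0 ± 6.33, 111 ± 66.8, 81.1 ± 94.9 and 178 ± 130.2. Its log2 change over the span was 1.07 ± 0.49 (SE, adjusted p = 0.093). Without 28 dpn replicate 1 UGT2B31 passed, as higher, both from 28 to 188 dpn (adjusted p = 0.013) and over the span (adjusted p = 0.047). SULT2A1, which sulfates steroids and bile acids, had means of 76.0 to 148, and the estrogen sulfotransferase SULT1E1 of 6.95 to 26.2. The 6 P450 genes of families 1 to 3 without any call, CYP1A1, CYP2C32, CYP2C36, CYP2C42, CYP2C91 and CYP2J34, had median percentiles of 19.6 to 42.0 over all samples.

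Partner genes of these enzymes (electron donors, receptors, other conjugating, reducing and exporting proteins) were taken from a list of 102, of which 60 were measured. From 94 dpc to 1 dpn 12 were higher and 7 lower, from 1 to 28 dpn 2 and 4, from 28 to 188 dpn 5 and 6, and over the whole span 17 and 11. In percent these were 20.0 and 11.7 (all genes 13.7 and 19.4), 3.33 and 6.67 (13.5 and 10.6), 8.33 and 10.0 (5.78 and 12.5), and 28.3 and 18.3 (19.5 and 27.4). FDX1, the ferredoxin that donates electrons to mitochondrial P450 enzymes such as CYP27A1, rose 5.72-fold at 1 dpn (6292 ± 2202, n = 6, against 1044 ± 168, n = 5, adjusted p = 3e-08) and was 2.52-fold lower at 28 than at 1 dpn (adjusted p = 0.00011). ALAS1, which starts the synthesis of heme, rose 4.23-fold from 94 dpc to 1 dpn (5125 ± 917 against 1197 ± 204, adjusted p = 1.4e-08). GCLM, a subunit of the enzyme that starts glutathione synthesis, rose 4.29-fold over the same step (adjusted p = 7.3e-05). POR, the electron donor of microsomal P450 enzymes, passed in no comparison, with stage means of 398 to 480. NQO1, a quinone reductase, rose 2.94-fold from 1 to 28 dpn (adjusted p = 0.001).

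Over the whole span the drug exporter ABCG2 was 8.55-fold lower at 188 dpn (200.2 ± 46.9 against 1800.1 ± 126, adjusted p = 1.6e-10), and CRABP2, a carrier of retinoic acid, 7.02-fold lower (adjusted p = 8.2e-05). CYB5R1, a reductase of the cytochrome b5 group, was 5.99-fold higher (8491 ± 914 against 1433 ± 358, adjusted p = 1e-08) and the retinoid X receptor RXRG 4.82-fold higher (adjusted p = 1.9e-06). Between 28 and 188 dpn, CES1, a drug-hydrolysing carboxylesterase of liver, was 3.84-fold higher (698 ± 719 against 154 ± 135, n = 6 each, adjusted p = 0.0097) and the monoamine oxidase MAOB 3.11-fold higher (adjusted p = 0.00051).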

How the data were processed

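Liver-labelled pig tissue of 23 animals was hybridised to single-colour Affymetrix arrays, 1 per animal. The authors' deposited values are linear signal intensities per probe set, made with GCOS 1.1.1 per the submitters' processing notes. Each array's trimmed mean (2% off each end) was 500.1 to 500.2, and array medians were 121.3 to 169.4. Other upstream settings: not given in the sources used here.

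Of 24123 probe sets, 124 controls were left out. Log2(intensity + 16) of the other 23999 was fitted with limma 3.58.1 (lmFit, eBayes, R 4.3.3), with 1 mean per stage over all 23 arrays. Stages were compared by 4 two-sided contrasts with Benjamini-Hochberg adjustment. The number of arrays limits the precision. Symbols came from GEO's platform annotation, and 51 of 52 members are in RefSeq's table. Summaries used Python 3.11.15 with pandas 2.3.3 and matplotlib 3.10.9. Members and lists were chosen with earlier results of these data known. Full values are given for called, non-overlapping members, above the median probe set in the higher stage, with the 6 greatest changes each way per comparison. Other members stand by role, and some given in full were chosen after their values were seen. The 7 probe sets with several P450 symbols were left out.

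On simulated data of 23999 probe sets, the fit recovered 30, 37, 35 and 31 of 100 planted log2 changes of 1, and 81, 85, 80 and 82 of 100 of 2, in the order of the comparisons, with 5, 8, 7 and 9 false calls. The simulated noise was normal and independent between samples, without litters, and only the planted probe sets changed. In the data many more passed, 3202 higher and 5612 lower from 94 dpc to 188 dpn. The simulated rates therefore cannot be carried over to the data. Alternatives were quantile normalization, median centring, no dim probe sets, constants of 1 and 64, only the stages compared, trend and robust options, array weights, no low-GAPDH arrays, each sample left out, the mean of all probe sets, and, added after seeing the data, a hepatocyte marker covariate and no highest-marker sample per stage.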

Additional observations from a re-analysis of the deposited data

Results flagged for a closer look

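In 208 groups (52 members at 4 stages), 17 single samples stood far from the others of their stage by Dixon's 95% criterion, where chance gives about 1 group in 20. Of these, 6 were in 188 dpn replicate 1 and all were the stage's highest: ALDH1A1 (2323), ALDH1B1 (598), ALDH9A1 (3576), CYP11A1 (56.8), FMO5 (136) and SULT1E1 (34.9). The other 5 samples of that stage lay at 653 to 939 for ALDH1A1, 62.7 to 136 for ALDH1B1 and 2083 to 2464 for ALDH9A1. In 1 dpn replicate 2, CYP3A29 (66.1) and CYP17A1 (60.9) were highest and CYP2A19 (5.20) lowest. CYP3A29 had 1769 in 28 dpn replicate 5, against 75.8 to 218 in the others. CYP51, the lanosterol demethylase, had 520.4 as the highest value of 188 dpn in replicate 2 and 109 as the lowest of 1 dpn in replicate 6. The other lowest values were ALDH2 with 2873 in 94 dpc replicate 1, ALDH7A1 with 20.5 in 1 dpn replicate 6, CYP24A1 with 20.2 in 1 dpn replicate 4, CYP11A1 with 3.33 in 28 dpn replicate 6 and GSTO1 with 3133 in 28 dpn replicate 5.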

How the results depend on the processing

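Of 60 called changes of single members, the most lost under 1 setting were 11 without the highest-marker samples and 9 each with centring and with only the stages compared, and 17 were lost when at least 1 of the samples was left out. Against 4 members higher and 7 lower at 1 dpn than at 94 dpc, quantile normalization gave 7 higher, centring 11 higher and 4 lower, and the hepatocyte marker covariate 9 higher. Against 10 higher and 1 lower at 28 than at 1 dpn, leaving out the low-GAPDH arrays gave 6 higher and 2 lower, leaving out the highest-marker samples 6 higher, and the mean of all probe sets 2 lower. Against 6 higher and 3 lower at 188 than at 28 dpn, a constant of 1, only the stages compared and the marker covariate each gave 3 higher, and only the stages compared, array weights and no low-GAPDH arrays each gave 5 lower. Against 22 higher and 7 lower at 188 dpn than at 94 dpc, 13 were higher without dim probe sets, where fewer were tested, and 4 were lower with centring. With the mean of all probe sets, CYP19A3 turned to -0.042 at 1 dpn against 94 dpc (log2), and CYP2D25 to 0.18 there and to 0.70 at 188 dpn against 94 dpc. Except for the dim probe sets, the cause was not tested. With each sample left out, the counts higher and lower ran from 4 to 6 and 6 to 8, from 7 to 11 and 1 to 3, from 2 to 8 and 3 to 5, and from 17 to 23 and 5 to 7, in the order of the comparisons. The 3 lower at 28 dpn came without 28 dpn replicate 1. Only 2 were higher at 188 than at 28 dpn without 28 dpn replicate 3, 4 or 6, and 3 without 188 dpn replicate 3 or 6, and 5 were lower without 1 dpn replicate 5. No paired analysis was possible because each sample came from another animal and the labels do not name its dam. Dim members near the floor of the array limit the size of their folds, which move with the added constant: CYP3A46, for example, had a log2 change of 4.19 with 1 and 1.28 with 64.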
